A study of Homo sapiens with 6 samples.

Results

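The HES and HEY genes encode a family of basic helix-loop-helix (bHLH) repressors, and 9 of them, HES1, HES2, HES4, HES5, HES6, HES7, HEY1, HEY2 and HEYL, were taken by symbol from a table of 50883 genes. All 9 were in the table, 6 had enough counts to be tested, and 1, HES5, had no count in any library. The table holds 6 RNA libraries of D283, an established human medulloblastoma cell line, which is 1 line and so 1 genetic background. Both groups received a lentivirus that also expresses GFP, with a guide RNA that targets OTX2 in the 3 libraries whose genotype label is OTX2 knockout and a non-targeting guide in the 3 control libraries, and cells were collected after 7 days. Infections were made in triplicate, so p-values measure the spread between infections of 1 line. How many guides were used, which nuclease cut and what share of cells was edited is not stated in the sources used here.

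When a ligand of the Delta or Jagged type binds a Notch receptor, proteases release the receptor's intracellular part, which joins the DNA-binding protein RBPJ and switches on target genes. HES and HEY genes are the best known of these targets. Their proteins bind DNA as dimers and recruit corepressors, and in the developing brain HES1 and HES5 hold progenitors undifferentiated by repressing proneural bHLH genes such as the neurogenins. HES6 is the odd member, since it is known to bind HES1, to oppose it and to favour neuronal differentiation, and it is not a typical Notch target.

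HEY1 rose 2.38-fold in the knockout libraries and HEY2 1.77-fold, while the adjusted p of HES1, HES6, HES7 and HEYL did not pass the threshold of 0.05. Of the 6 tested members 0 fell by edgeR, and 0 fell at an unadjusted p under 0.05, by DESeq2 or by limma-voom. Over all tested genes 21.2% rose and 18.5% fell by edgeR, so with 6 members 0 falls do not mark the family out. HES6 carried most of the family's RNA in both groups. HES2, HES4 and HES5 were too low for the test.

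The libraries held between 54540645 and 62166870 counts. OTX2 itself had 1002, 979 and 909 CPM in control replicates 1 to 3 and 765, 824 and 887 CPM in knockout replicates 1 to 3, where CPM divides each count by its library's size after trimmed-mean (TMM) scaling. These groups did not overlap, and OTX2 fell by 0.22 on the log2 scale (SE 0.06, adjusted p = 0.00646). Here and below, an adjusted p comes from the quasi-likelihood F test of edgeR, with the Benjamini-Hochberg procedure applied to every gene tested. An edited gene can still be transcribed, so its RNA checks the labels only in part. Control replicate 1 stood apart in RNA quality, with 0.764% of its counts from mitochondrially encoded genes and 0.305% from ribosomal RNA, against 0.440% to 0.601% and 0.0679% to 0.111% in the other libraries. Changes were common, since 39.7% of the 18420 tested genes passed in either direction, 21.2% upwards and 18.5% downwards. Rises made up 53.4% of these calls, and 71.9% when libraries were scaled by their totals alone.

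**Figure D1:**
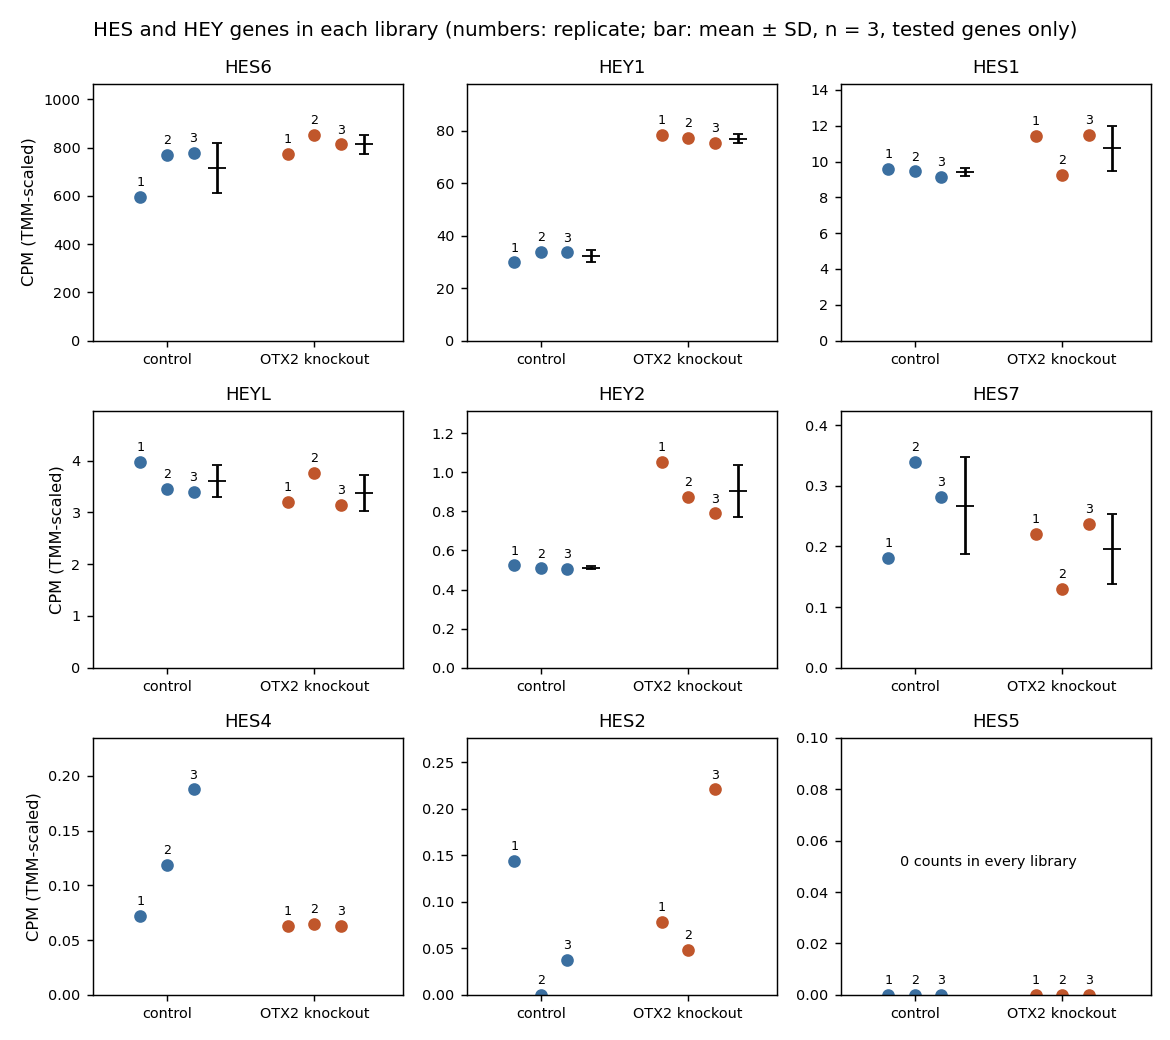
The vertical axes show CPM on TMM-scaled library sizes, each starting at 0 and scaled to its gene, for the 9 genes in control (blue) and OTX2 knockout (orange) libraries. Points are libraries with their replicate number, and bars beside the 6 tested genes are the mean ± SD (n = 3). The HEY1 points lie between 29.8 and 33.7 CPM in control and between 75.3 and 78.4 CPM in knockout, while the HES1, HEYL and HES7 groups overlap.

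HEY1 is a direct Notch target that acts in vessels, heart and brain. Its gene spans 79764010 to 79767863 of chromosome 8, minus strand (GRCh38, GENCODE release 29). It had 29.8, 33.7 and 33.6 CPM in control replicates 1 to 3 and 78.4, 77.4 and 75.3 CPM in knockout replicates 1 to 3. The lowest knockout library was above the highest control by far more than the spread within either group. Means were 32.3 ± 2.21 and 77.0 ± 1.59 CPM (SD over 3 libraries each), and the log2 fold change was 1.25 (SE 0.05, edgeR adjusted p = 1.69e-10). The 95% confidence interval of the fold change ran from 2.20 to 2.58. Of all tested genes, 4.48% had a larger log2 fold change than HEY1.

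HEY2, a close relative of HEY1 known for its part in heart and artery development, was scarce. It spans 125747664 to 125761269 of chromosome 6, plus strand. Its control libraries had 29, 30 and 27 counts and its knockout libraries 67, 54 and 50 counts. That is 0.524, 0.508 and 0.506 CPM against 1.05, 0.873 and 0.790 CPM, again with no overlap between the groups. The log2 fold change was 0.82 (SE 0.20, edgeR adjusted p = 0.00452), and its interval was wide, from 1.31-fold to 2.37-fold. HEY1 and HEY2 were also the 2 tested members whose CPM values did not overlap between the groups, which was so for 49.2% of all tested genes, 26.2% with higher and 23% with lower knockout values. With 2 of 6 tested members past the threshold, against 39.7% of all tested genes, the share of members called was near the background.

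HEYL, the remaining HEY gene, spans 39624153 to 39639945 of chromosome 1, minus strand. It had 3.97, 3.46 and 3.40 CPM in control and 3.20, 3.77 and 3.14 CPM in knockout replicates 1 to 3. The groups overlapped, and the log2 fold change was -0.10 (SE 0.11, edgeR adjusted p = 0.52). The interval of its fold change, 0.793 to 1.10, leaves room for a small change in either direction and ends below the interval of HEY1.

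HES1, the broadly expressed Notch target that oscillates in neural progenitors, spans 194136145 to 194138732 of chromosome 3, plus strand. Control replicates 1 to 3 had 9.60, 9.45 and 9.15 CPM and knockout replicates 1 to 3 had 11.4, 9.27 and 11.5 CPM. Knockout replicates 1 and 3 were above every control, and knockout replicate 2 lay among the controls. The log2 fold change was 0.19 (SE 0.08, unadjusted p = 0.0395, edgeR adjusted p = 0.0876), with a 95% interval from 1.01-fold to 1.29-fold. Without knockout replicate 2 the log2 fold change was 0.28 and the adjusted p 0.0139, so this library decided the call.

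HES6 spans 238238267 to 238240662 of chromosome 2, minus strand. It had 595, 771 and 779 CPM in control and 775, 852 and 813 CPM in knockout replicates 1 to 3. Control replicate 1 was the low library, and knockout replicate 1 fell between control replicates 2 and 3, so the groups overlapped. The log2 fold change was 0.19 (SE 0.08, unadjusted p = 0.0373, edgeR adjusted p = 0.0835). It was 0.07 without control replicate 1 (adjusted p = 0.301) and 0.25 without control replicate 3 (adjusted p = 0.028). Control replicate 1 is also the library with the larger mitochondrial and ribosomal RNA shares.

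HES7, a clock gene of the embryonic segments, spans 8120590 to 8124092 of chromosome 17, minus strand. It passed the filter on low counts with 10, 20 and 15 counts in control and 14, 8 and 15 counts in knockout, and its log2 fold change was -0.45 (SE 0.35, edgeR adjusted p = 0.344), with an interval from 0.435-fold to 1.24-fold. HES4, on chromosome 1 from 998962 to 1000172, had 4, 7 and 10 counts in control and 4 in each knockout library. HES2, on chromosome 1 from 6412418 to 6424670, had 8, 0 and 2 counts in control and 5, 3 and 14 counts in knockout. HES4 and HES2 libraries thus lay near the limit of detection, and in a fit with no filter their log2 fold changes were -0.96 (SE 0.60, edgeR adjusted p = 0.305) and 0.94 (SE 0.63, adjusted p = 0.342).

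HES5, a main effector of Notch in neural stem cells, lies on chromosome 1 from 2528745 to 2530245 and had 0 counts in all 6 libraries. A count of 0 allows a level of up to 3 counts, between 0.0471 and 0.0563 CPM in single libraries. HES3, a related gene that is not among the 9, was also at 0. The counting program and its annotation are not stated, and the tubulin gene TUBB3 was also listed at 0, so a 0 from the counting and a lack of RNA cannot be told apart. In GENCODE release 29, which need not be the annotation the authors counted on, no exon of HES5 or of the other 8 members overlaps an exon of another gene.

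**Figure D2:**
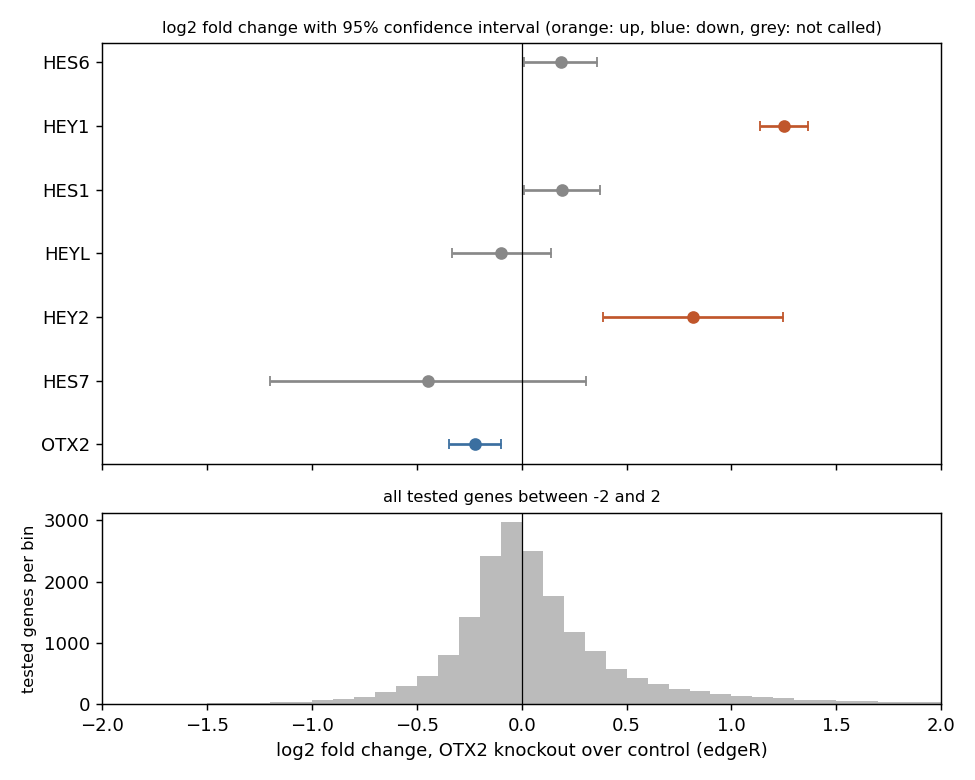
The upper panel shows the log2 fold change of OTX2 knockout over control from edgeR, with its 95% confidence interval, for the 6 tested members and OTX2. The lower panel counts all tested genes between -2 and 2 on the same axis. HEY1 at 1.25 and HEY2 at 0.82 lie right of most tested genes, and the intervals of HES6 and HES1 begin just above 0 before adjustment for multiple tests.

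Levels of different members were compared as CPM per kilobase of the longest annotated transcript, a scale that depends on transcript models the authors may not have used. On it HES6 stood at 447 in control and 508 in knockout, HEY1 at 14.1 and 33.5, HES1 at 5.96 and 6.80, and HEYL at 0.985 and 0.921. HEY2 followed at 0.191 and 0.338, HES7 at 0.159 and 0.117, HES4 at 0.121 and 0.0611, and HES2 at 0.0142 and 0.0272. The order was the same in both groups. In control the libraries of HEY2 and HES7 overlapped on this scale, as did those of HES7 and HES4, and other neighbours among these 8 genes did not overlap in either group. Among 14918 tested genes with a transcript length, HES6 ranked 95th in control and 76th in knockout, and HEY1 moved from 4200th to 1591st. HES1 ranked 7128th and 6758th, near the middle.

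HES6 made up 94.8% to 95.7% of the family's summed CPM per kilobase in the control libraries and 91.9% to 92.8% in the knockout libraries. The share of HEY1 went from between 2.87% and 3.31% to between 5.88% and 6.48%. Without HES6, the sum over the other 8 members was 20.6 to 22.1 CPM per kilobase in control and 41.1 to 42.9 in knockout, most of it HEY1. These sums describe the libraries and were not tested.

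Ratios between members within a library do not depend on how libraries are scaled. HEY1 over HES1, per kilobase, was 2.13, 2.45 and 2.52 in control and 4.71, 5.74 and 4.50 in knockout replicates 1 to 3. HEY1 over HEY2 was 66.4, 77.3 and 77.3 in control and 86.9, 103 and 111 in knockout. Both ratios were higher in each knockout library than in any control library. HES6 over HES1 overlapped, with 61.1, 80.4 and 84.0 in control and 66.7, 90.7 and 69.8 in knockout. Of 5 ratios, chosen after the values were seen, the 4 with HEY1 as numerator (over HES1, HEY2, HES6 and HEYL) separated the groups. Each had an exact two-sided permutation p of 0.1, adjusted p = 0.125 over the 5, where 0.1 is the smallest p that 3 against 3 libraries allow. These 4 share HEY1, so they largely repeat its rise and give no separate support. For HES6 over HES1 the exact permutation p was 1.

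The regions before the transcription starts were read for sites of the factors that act on this family. They are shown for HES1 and HES5, the textbook Notch targets that did not pass the test or had no count, for HEY2, which rose, and for HES6, the most abundant member. The windows are the 250 bases before each RefSeq start (GRCh38 patch 14), shortened where GENCODE annotates an exon, and capitals mark the RBPJ core site GTGGGAA on either strand. HES1 is chr3:194135898-194136144 on the plus strand, HES5 chr1:2530264-2530513 on the minus strand, HES6 chr2:238240125-238240288 on the minus strand and HEY2 chr6:125749382-125749579 on the plus strand, each written 5′ to 3′ in the direction of the gene.
HES1: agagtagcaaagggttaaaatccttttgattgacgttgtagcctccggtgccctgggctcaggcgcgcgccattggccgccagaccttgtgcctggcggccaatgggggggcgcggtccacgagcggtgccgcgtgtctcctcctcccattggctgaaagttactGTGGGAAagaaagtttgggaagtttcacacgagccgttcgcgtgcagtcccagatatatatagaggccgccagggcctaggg
HES5: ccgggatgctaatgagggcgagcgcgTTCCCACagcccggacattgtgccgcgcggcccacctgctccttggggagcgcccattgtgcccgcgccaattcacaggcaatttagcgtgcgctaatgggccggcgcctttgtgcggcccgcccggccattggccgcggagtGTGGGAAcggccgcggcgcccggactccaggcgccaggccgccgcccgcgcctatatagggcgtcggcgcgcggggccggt
HES6: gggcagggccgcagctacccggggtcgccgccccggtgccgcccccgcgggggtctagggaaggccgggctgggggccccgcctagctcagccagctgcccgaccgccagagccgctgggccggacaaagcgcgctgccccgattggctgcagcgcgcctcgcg
HEY2: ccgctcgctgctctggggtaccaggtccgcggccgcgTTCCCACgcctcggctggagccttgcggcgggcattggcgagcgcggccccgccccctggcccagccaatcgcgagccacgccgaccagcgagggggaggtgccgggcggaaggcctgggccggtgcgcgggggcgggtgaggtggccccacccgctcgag

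Only exact matches of the RBPJ core were searched for, so variant sites are not counted. HES5 holds 2, which begin 224 and 81 bases before its start, HES1 holds 1, 85 bases before, and HEY2 1, 213 bases before. HES6 holds none in its 250 bases. By position, the windows of HES2, HES6, HEY2 and HEYL lie inside the GENCODE spans given above. A match or its lack thus depends on which start is used. RefSeq windows were read for 8 of the 9 members. HEY1, on chromosome 8, was left out of the search, so nothing is said of its window. Over the 8 searched, the core is present in 5 (HES1, HES4, HES5, HEY2 and HEYL), against 5.43% of 35116 windows of the same length. The match of HEYL and 5 of the 7 bases of that of HES4 lie in sequence that GENCODE annotates as exon. The OTX-type motif TAATCC is in 0 of the 8, against 5.62% of all windows. The N-box CACNAG, which HES proteins bind, is in 2, HES1 with 3 matches and HES7 with 1, against 32% of all windows, and the class C site CACGCG is in HES1 alone, with 2 matches, against 9.72%. Both strands were searched, the N-box and class C matches can overlap each other, and the members' windows hold 59.2% to 79.6% G and C. Windows with a core thus belong to a gene that rose, to genes whose adjusted p did not pass and to a gene with no count, and these matches describe letters, not binding.

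Upstream of HES and HEY, genes for the Notch receptors and ligands moved in both directions. Of 4 receptor genes, NOTCH1 rose from 91.9 ± 3.36 to 107 ± 6.68 CPM and NOTCH2, the most counted of them, fell, with 706 ± 41.4 CPM in control and 510.1 ± 17.8 CPM in knockout. NOTCH3 and NOTCH4 had log2 fold changes of -0.08 (edgeR adjusted p = 0.26) and -0.11 (edgeR adjusted p = 0.817). Of 7 ligand genes, 3 rose and 1 fell. DLL1, the Delta ligand of neurogenesis, rose from 0.155 ± 0.0307 to 0.853 ± 0.0981 CPM, and DLL4, a Delta ligand of vessels, rose 4.16-fold from 13 counts over the 3 controls. The non-canonical ligand DLK1 had 2 counts in control and 88 in knockout, a ratio of 39.1 with a 95% counting interval of 10.5 to 328. JAG2, with more counts than any other ligand here, fell from 64.4 ± 2.02 to 44.5 ± 1.17 CPM, and JAG1, DLL3 and DLK2 had log2 fold changes of -0.05, 0.03 and -0.29 and edgeR adjusted p values of 0.573, 0.806 and 0.174. The medians of these lists were -0.09 for receptors and 0.03 for ligands, against 0.01 over all tested genes. Where 3 libraries had to reach 1 CPM, the rising ligands were no longer tested.

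Among 14 genes for enzymes that modify or cut Notch, 3 rose and 3 fell, with a median of -0.04. MFNG, a fringe glycosyltransferase, rose from 0.178 ± 0.0219 to 20.7 ± 0.897 CPM. RFNG, another fringe, fell to 0.825 of its control level and ADAM17, a protease, to 0.881, while the gamma-secretase subunit genes NCSTN and PSENEN rose 1.19-fold and 1.20-fold. POGLUT1 completed the falls at 0.904 of control. Exons of RFNG overlap GPS1, those of NCSTN overlap COPA, those of ADAM17 overlap IAH1 and those of PSENEN overlap U2AF1L4, so these counts are uncertain. Among 12 tested genes that tune the signal, 3 rose, NEURL1B (2.80-fold), MIB2 (1.30-fold) and NUMBL (1.27-fold), and 2 fell. These were NRARP, a feedback inhibitor and itself a Notch target, from 4.96 ± 0.21 to 3.64 ± 0.207 CPM, and NEURL1, to 0.872 of control. When control replicate 2, control replicate 3, knockout replicate 1 or knockout replicate 3 was left out, and also with library totals alone or at a threshold of 0.01, NRARP was the only one of the list that fell. With library totals alone, 1 of the 14 enzyme genes, RFNG, fell. POGLUT1 lost its call without control replicate 3, knockout replicate 1 or knockout replicate 2 (edgeR adjusted p from 0.0581 to 0.0883), and PSENEN lost its call without any 1 of the control replicates or without knockout replicate 1 (from 0.0618 to 0.19).

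The gene of the DNA-binding partner, RBPJ, named after its values were seen, had 121 ± 4.85 CPM in control and 133 ± 7.75 CPM in knockout (edgeR adjusted p = 0.0616). Of 8 tested genes for RBPJ and its coactivators, KAT2B rose 1.42-fold and MAML3 1.23-fold, while MAML2 fell to 0.767 and KAT2A to 0.896 of control, with a median of 0. Exons of MAML3 overlap MGST2, and 10.75% of the exon bases of KAT2A overlap AC099811.2, a protein-coding entry on the same strand. Further overlaps among the listed genes include AES (10.65%), MAML2 (7.72%), JAG2 (7.33%) and NEUROD1 (7.13%). An unflagged gene thus need not be free of overlap. KAT2A lost its call without control replicate 2 or knockout replicate 3 (edgeR adjusted p = 0.0782 and 0.053). Without control replicate 1, 4 of these genes rose, and without control replicate 2, 1 fell. With library totals alone 4 rose and 1 fell, and 1 fell at a threshold of 0.01. Of 17 corepressor genes, 4 rose and 4 fell, also with a median of 0. The Groucho-type corepressors TLE4 and TLE2, which HES proteins recruit, rose 2.10-fold and 1.46-fold, and AES, the short member of that family, rose 1.25-fold, while TLE1 fell to 0.861 of control. The remaining calls were KDM1A, up 1.12-fold, and HDAC2, SPEN and SIRT1, at 0.884, 0.839 and 0.891 of control. SPEN lost its call without control replicate 1, where its log2 fold change was -0.10 in place of -0.25, and without knockout replicate 1 or 2. SIRT1 lost its call without control replicate 1 or 2 or knockout replicate 1 or 2, and KDM1A without knockout replicate 2. The number of falling corepressor genes was 2 without control replicate 1, knockout replicate 1 or knockout replicate 2, 2 with upper-quartile factors, a filter of 1 CPM in 3 libraries or a threshold of 0.01, and 1 with library totals alone.

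Of the genes of ID proteins and of proneural bHLH factors most of those tested rose. ID proteins lack a DNA-binding region and pair with other bHLH proteins, HES1 among them. Of 5 tested genes of ID proteins and other bHLH-Orange factors, 4 rose and 0 fell, with 0 falls also at an unadjusted p under 0.05, by DESeq2 and by limma-voom, and a median of 1.0. ID2 rose 2.22-fold, ID4 2.14-fold, ID3 1.51-fold and BHLHE40, a repressor of the circadian system, 2.0-fold, while the log2 fold change of ID1 was 0.09 (edgeR adjusted p = 0.292). BHLHE40 had 5.85, 5.47 and 4.28 CPM in control replicates 1 to 3 and 7.58, 7.23 and 16.4 CPM in knockout replicates 1 to 3. Without knockout replicate 3 its log2 fold change was 0.50 in place of 1.0 (edgeR adjusted p = 0.00276). Of 8 tested proneural and neuronal bHLH genes, 7 rose and 0 fell by edgeR, with 0 falls at an unadjusted p under 0.05, by DESeq2 and by limma-voom, and a median of 1.81. NHLH1 rose from 0.165 ± 0.0539 to 9.08 ± 0.884 CPM, NEUROD2 10.3-fold, NEUROD4 8.46-fold and NEUROD1 from 41.2 ± 2.24 to 147 ± 13.6 CPM. The tested gene of this list that did not pass was NEUROG1, at 102 ± 5.23 and 105 ± 6.91 CPM. It was the only neurogenin gene with enough counts to be tested, so its values do not stand for the other neurogenins. That the proneural genes rise in this series was known when their list was written, so that list gives no independent support. The list of ID and related factors was also chosen with earlier results of these data known, and gives none either.

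Other genes listed as Notch targets moved in both directions. Of 6 tested, CDKN1A, a cyclin-dependent kinase inhibitor, rose 2.28-fold. MYC fell from 1725 ± 118 to 1204 ± 159 CPM, HEG1 to 0.687 and NRARP to 0.735 of control. NOTCH3 and SOX9 had log2 fold changes of -0.08 (edgeR adjusted p = 0.26) and -0.10 (edgeR adjusted p = 0.411). The median of these 6 was -0.27. Over all 79 tested genes of the 9 lists, counted once each, 28 rose and 15 fell, or 54.4% called against 39.7% of all tested genes, with a median log2 fold change of 0.03. All 9 lists were chosen with earlier results of these data known, and the pool holds the proneural genes, known to rise when their list was written. The pooled share thus gives no independent support.

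**Figure D3:**
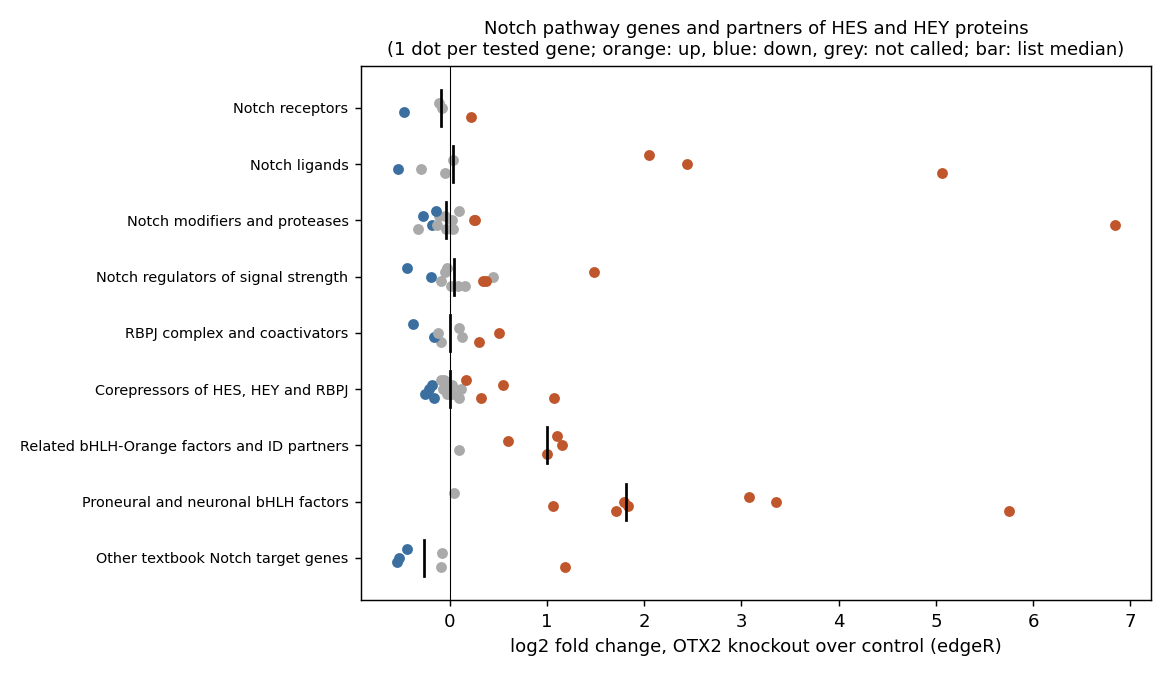
Each dot is a tested gene of the 9 lists, placed on the horizontal axis by its log2 fold change of OTX2 knockout over control from edgeR, with genes that rose in orange, genes that fell in blue and the others in grey. Black bars are list medians, which lie between -0.27 and 0.05 for the lists of Notch components, cofactors and other targets, at 1.0 for ID and related factors and at 1.81 for proneural and neuronal bHLH genes.

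By profile over the 6 libraries, the genes nearest to HEY1 among 12940 with a mean count of at least 100 were DUSP5, PPP1R1B and SOX13, whose centred log2 CPM differed from that of HEY1 by 0.0299, 0.0302 and 0.0399 on average. Their log2 fold changes were 1.24, 1.24 and 1.26, and 80 genes lay within 0.1 of HEY1. Nearest to HES6 were CCDC28B, HDHD3 and ABHD8, at 0.0381, 0.0427 and 0.0462, with 1104 genes within 0.1. With 2 groups of 3 libraries such likeness mostly repeats the size of the group difference.

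Markers of cell types moved with the groups. All 8 markers of Group 3 medulloblastoma were detected and all 8 fell, with a summed level of 4516 to 4836 CPM in control and 3155 to 3721 CPM in knockout. These 8 include OTX2, the targeted gene itself, and MYC, which is also listed above as a Notch target. Of 7 tested neuronal markers 6 rose and 1, SYT1, fell, from 170 ± 11.6 to 148 ± 8.72 CPM (edgeR adjusted p = 0.0109). The sum of the neuronal markers, mostly SYT1, was 170 to 194 CPM in control and 191 to 213 CPM in knockout. Of 5 tested markers of neural progenitors and radial glia, where HES1 and HES5 are usually high, 2 rose and 3 fell, with sums of 1448 to 1496 and 1147 to 1192 CPM, and the defining markers SOX2, FABP7 and HOPX had at most 1 count per group. Of 4 tested astroglial markers 2 rose and 1 fell, with sums of 5901 to 6327 and 4081 to 4723 CPM that were mostly GLUL, while GFAP had 1 count in control and 6 in knockout and RLBP1 had 1 in each. Of 4 tested endothelial markers, a cell type where HEY1 and HEY2 are high, 2 rose and the other 2 did not pass. Their sums were low, at 6.30 to 9.15 CPM in control and 9.43 to 10.8 CPM in knockout. The rising PECAM1 had 11 counts over the controls and 42 over the knockouts, and CDH5, not tested, went from 0 to 31 counts. Of 6 mesenchymal markers 5 rose and 1 did not pass, with sums of 16.5 to 17.6 and 26.1 to 27.8 CPM. Of 4 tested immune markers 1 rose and 1 fell, with sums of 1.15 to 1.17 and 0.792 to 0.864 CPM, and CD3E was at 0. The marker that rose, CD14, had 13 counts in control and 33 in knockout, and the one that fell, CSF1R, had 88 and 34. In bulk RNA a change in the share of cells of a kind and a change in RNA per cell cannot be told apart, and the part of these markers in the HEY1 and HEY2 values was not tested.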

How the data were processed

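Total RNA of 3 control and 3 OTX2 knockout cultures of D283 was sequenced, and the authors deposited unnormalized counts per gene symbol, 1 column per library. Per the submitters' processing notes, STAR and hg38 were used; which program counted, on what annotation and with what strand setting or filter, is not stated in the sources used here. Columns were matched to libraries by title, and groups come from the genotype label.

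The comparison was fitted in edgeR 4.0.16 (R 4.3.3): filterByExpr at its defaults, TMM scaling, and the quasi-likelihood F test (glmQLFit, glmQLFTest) over all 18420 tested genes, Benjamini-Hochberg adjusted, threshold 0.05. Means are CPM on TMM-scaled sizes ± SD (n = 3), fold changes ratios of those means, and log2 fold changes come from the fit. Standard errors and 95% intervals derive from the F statistic. Counting limits (3 counts, and the exact interval of DLK1) cover counting error only. Positions and lengths are from GENCODE release 29 and promoter windows from RefSeq, matched by symbol. Windows of 8 of the 9 members were searched, and HEY1 was left out of the search.

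The members and the 9 pathway and 7 marker lists were chosen with earlier results of these data known. Named are all members, OTX2, up to 4 genes per pathway list with the smallest adjusted p, the genes behind counts of 5 or fewer, and the 3 nearest profiles of the most abundant and most changed members; list genes beyond this rule were named after their values were seen. Alternatives were RLE, upper-quartile and no scaling factors, no filter, a filter of 1 CPM in 3 libraries, DESeq2 1.42.0, limma-voom (limma 3.58.1), glmTreat against 1.5-fold, a threshold of 0.01, removal of mitochondrial and rRNA genes, and leaving out each library; leaving out libraries gene by gene for the list genes was added after seeing the data. The scripts were tested on simulated data. The values of 1 gene of these lists are not reported here.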

Additional observations from a re-analysis of the deposited data

How the results depend on the processing

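HEY1 kept its direction and its call under all 16 alternatives, with log2 fold changes between 1.19 and 1.33. HEY2 kept its call in each of the 15 that tested it except glmTreat against a 1.5-fold change (log2 fold change 0.82, adjusted p = 0.45), and the filter of 1 CPM in 3 libraries removed it and HES7. HES1 passed with library totals alone (0.27, adjusted p = 0.027), and ranged from 0.13 to 0.28 when single libraries were left out. HES6 passed with library totals alone (0.27, adjusted p = 0.0153) and with no filter (0.18, adjusted p = 0.00319), and ranged from 0.066 to 0.248 when single libraries were left out. HEYL and HES7 kept their sign and passed under none of the alternatives run. OTX2 did not pass against a 1.5-fold change (-0.22, adjusted p = 1). The cause of these differences was not tested.

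Rising members numbered 4 with library totals alone, 1 with the stricter filter, 1 with glmTreat, 3 with no filter, and 2 to 3 when single libraries were left out. With glmTreat, 1050 genes rose and 157 fell over the table, and 15 and 0 in the pathway lists; with library totals alone, 2034 genes fell over the table (5210 rose) and 8 in the pathway lists. With library totals the median of all genes moved by 0.08 on the log2 scale. No paired analysis was possible because the titles number the 6 libraries in 1 series and give the groups no shared number. Depth limits HES2, HES4, HES5 and HES7, whose totals per group were 0 to 45 counts.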
